A study of Mus musculus with 2 samples.

Results

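The genes described here encode the filaments of the cytoskeleton and the motors that move along them. They are the actins, alpha-actinins and actin-related proteins, the myosins, tropomyosins, tubulins, kinesins, dyneins and keratins whose mouse symbols match a fixed pattern, with the smooth muscle actin gene Acta2 left out. The rule itself uses symbols and no signals, but it was chosen with earlier results of these data known. Of 7409 genes that could be named on the array, 80 belong here, carried by 95 probes, and the brightest probe stood for its gene. A probe counted as detected at a detection score of 0.99 or more on at least 1 array. By that rule 33 of the 80 genes (41.25%) were detected, 27 of them on both arrays and 6 on 1, against 40.6% of all named genes.

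The samples were fibroblasts from embryos of NMRI mice, an outbred stock, prepared as a feeder layer for human embryonic stem cells. Both cultures had been grown with fetal calf serum, stopped from dividing with the DNA crosslinker mitomycin C, seeded again on gelatine (55000 cells per square centimetre) and given, a day later, a medium with serum replacement. The control culture got that medium without FGF2, a fibroblast growth factor, and the other got it with FGF2 at 40 ng/ml. RNA was taken after 24 h. How many animals stand behind a culture is not stated in the labels. Each culture was read on 1 array, so no difference below has a replicate check, and none has a p-value.

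Actin filaments carry contraction and the shape of the cell edge, with myosins as motors, tropomyosins as side-binding proteins and alpha-actinins as crosslinkers. Microtubules are built from alpha- and beta-tubulin, and kinesins and dynein carry cargo along them in opposite directions. Keratins form intermediate filaments chiefly in epithelia. Fibroblasts are rich in cytoplasmic actins, non-muscle myosin and the tubulins of dividing and resting cells, and use the actin machinery to pull on their matrix.

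Most detected members lay within 1.5-fold in quantile-normalized signals, as did most of all detected named genes. None of the 27 genes detected on both arrays reached a 2-fold difference in either direction, and none of the other 6, which have only a bound against the detection floor, had a bound of that size. Of all 3005 detected named genes, treated alike, 4.06% passed 2-fold (1.46% higher and 2.6% lower). With no floor, 1 member, the unconventional myosin gene Myo7a, was 2-fold lower (−1.09). At 1.5-fold or more, 3 genes were higher with FGF2 (the alpha-tubulin gene Tuba1c, the kinesin gene Kif3c and the keratin gene Krt18) and 1 was lower (the alpha-tubulin gene Tuba1a). That is 12.1% of the members, and 12.1% of all detected named genes also differed by that much. In the higher direction the share over all genes was 5.29%, and in the lower 6.79%. The median log2 ratio of FGF2 over control was 0.08 over the members and 0.03 over all genes. The members' share is that of the array as a whole and shows nothing particular to these genes.

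These ratios come from quantile-normalized signals with no background subtracted, and they understate the change of dim probes. The authors' value table holds the same arrays with a background subtracted and the FGF2 array rescaled. There, 2 members (Kif3c and Krt18) had at least 2-fold more signal with FGF2, and 1 was at least 2-fold lower (Myo7a). Of all genes, 4.59% were 2-fold higher there and 5.26% lower. At 1.5-fold it had 6 higher and 2 lower members, against 13.8% and 11.0% of all genes. Its ratios sit higher as a whole, with a median of 0.11 over all genes, so its ratios are also given less that median ("centred"), and each value below says which it is. After centring, 1 member was at least 2-fold higher (Krt18) and 1 was lower (Myo7a), against 3.49% and 6.32% of all genes, and 4 members lay 1.5-fold higher and 4 lower, against 10.3% and 13.5%. Signals with no scaling moved the median of all genes to −0.14, and left 1 member 1.5-fold higher and 2 lower, against 2.7% and 11.6%.

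**Figure D1:**
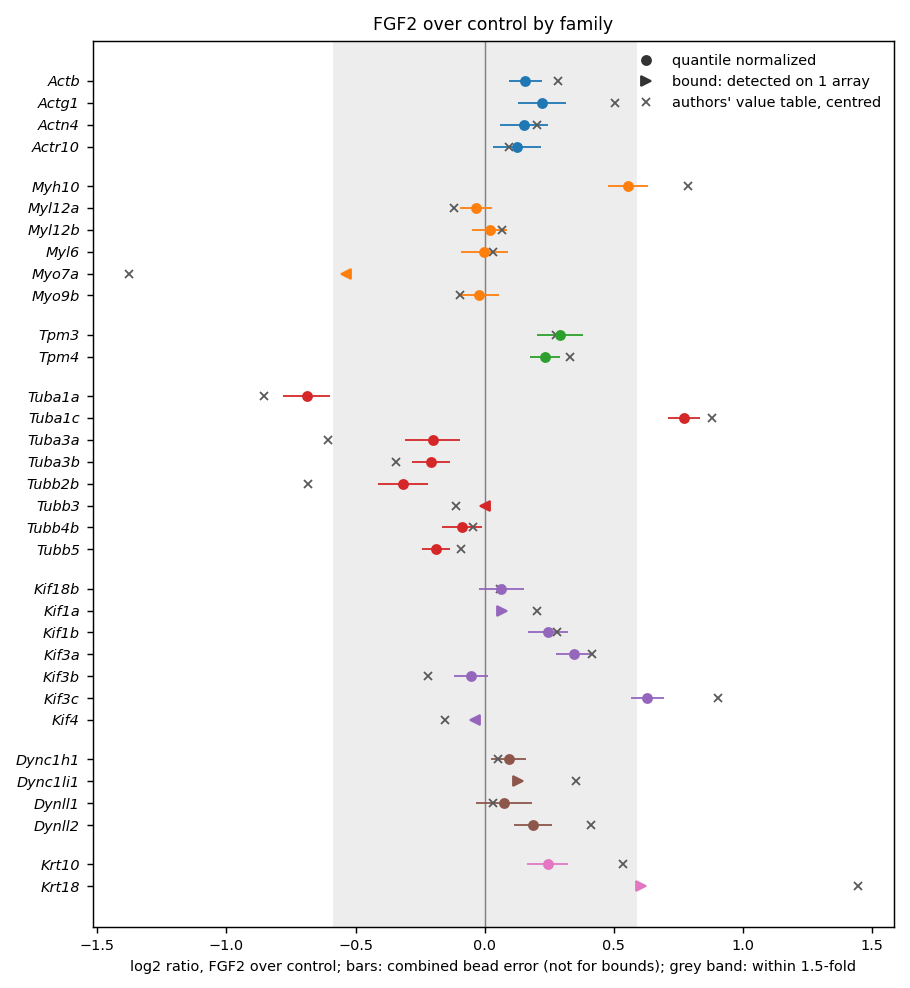
Log2 ratio of FGF2 over control (horizontal axis) for each of the 33 detected genes, coloured by family. Circles are quantile-normalized ratios with the combined bead error of both arrays as bars, triangles are bounds for genes detected on 1 array and point in the direction of the bound, crosses are centred ratios from the authors' value table, and the grey band is 1.5-fold. Tuba1c and Tuba1a lie outside the band on opposite sides, and Kif3c and Krt18 lie just beyond its upper edge.

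Each array held 24044 probes, and 7599 of them were detected in control and 7424 with FGF2. The lowest detected signals were 194.6 and 184.9 intensity units. All 5 fibroblast markers with a named probe were detected, and their summed signal was 32716 in control and 15552 with FGF2, where the list's 3 collagen genes were at least 2-fold lower. The other 2, Dcn (−0.10 ± 0.07) and S100a4 (0.14 ± 0.09), were within 1.5-fold. Fewer cells of a kind and less RNA per cell cannot be told apart in such bulk samples. Errors given as ± are the deposited bead standard deviation of a signal, or, for a log2 ratio, both arrays' bead errors combined. The sources used here do not say whether that deviation is a spread over beads or an error of their mean. Either way these errors describe beads within an array and leave out any variation between cultures. With 1 array a culture, precision is limited by that number.

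Among members measured on both arrays, the tubulins held both the highest and the lowest quantile-normalized ratio. Of 12 tubulin genes with a named probe 8 were detected, 1 of them higher with FGF2 by 1.5-fold, 1 lower and 6 within that size. Tuba1c, an alpha-tubulin gene, gave a signal of 4130 ± 142 in control and 6335 ± 166 with FGF2. It was 1.71-fold higher, a log2 ratio of 0.77 ± 0.06. Tuba1a, the alpha-tubulin gene best known for its part in the developing brain, gave 1255 ± 50 and 654.9 ± 31.4. It was 1.61-fold lower (−0.69 ± 0.09).

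Tuba1a and Tuba1c thus differed from each other by 1.46 ± 0.11 on the log2 scale, a 2.75-fold shift of one relative to the other. A scaling factor common to an array cancels in that difference. It was 1.56 in unscaled signals and 1.73 in the authors' value table. Both genes passed 1.5-fold in their own direction under all 11 settings tried. Settings that change only the floor, the detection score or the averaging of probes cannot alter these ratios. The coding sequences of the alpha-tubulin genes are very alike. Probe sequences were not used here, so how well each probe separates its gene from the others was not tested.

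The 2 alpha-tubulin genes lie on the same chromosome, and the windows before their starts are shown because the genes differed in opposite directions. Each is the 250 bases before the gene's start in the RefSeq annotation of build GRCm38.p6, read 5′ to 3′ on the gene's strand. Capitals mark a match on either strand to GGGCGG (the GC box), CCAAT (the CCAAT box), TATAAA (a core form of the TATA box), TTTGAA (the cell cycle homology region) or the CArG box bound by serum response factor. No matches of different motifs overlapped in these windows. The first is Tuba1a, at chr15:98953502-98953751 on the minus strand, and the second is Tuba1c, at chr15:99029641-99029890 on the plus strand.
Tuba1a: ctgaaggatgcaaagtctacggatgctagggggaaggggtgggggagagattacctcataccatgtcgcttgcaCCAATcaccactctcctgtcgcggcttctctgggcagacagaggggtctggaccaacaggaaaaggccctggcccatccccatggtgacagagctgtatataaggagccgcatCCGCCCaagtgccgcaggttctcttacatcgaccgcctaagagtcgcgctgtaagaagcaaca
Tuba1c: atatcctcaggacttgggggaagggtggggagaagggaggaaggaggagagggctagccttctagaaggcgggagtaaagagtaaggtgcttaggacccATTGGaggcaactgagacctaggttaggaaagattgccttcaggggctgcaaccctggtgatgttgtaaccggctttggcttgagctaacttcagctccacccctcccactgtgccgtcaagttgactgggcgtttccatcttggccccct

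The Tuba1a window held 1 GC box, 63 to 58 bases before the start, and 1 CCAAT, 176 to 172 bases before it. The Tuba1c window held 1 CCAAT, 151 to 147 bases before the start, and no GC box. CCAAT occurred in 33.8% of all 32851 windows of the same length and the GC box in 32.7%. Neither window held TATAAA, the cell cycle homology region or a CArG box, which says only that those exact letters are not there. Looser forms of the TATA box were not searched. The windows had a GC content of 56.8% and 55.6%, near the median of 52.4% over all windows.

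The other alpha-tubulins were slightly lower with FGF2. Tuba3b gave 656.1 in control and 478.8 with FGF2 (−0.21 ± 0.07). Tuba3a gave 252.7 and 197.7 (−0.20 ± 0.11), close to the lowest detected signals. Tuba3a and Tuba3b are known as testis-enriched genes with near-identical products, which makes the assignment of these signals uncertain.

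Of the beta-tubulins, none was above 0. Tubb5, a widely expressed beta-tubulin gene, gave 13489 ± 375 in control and 10721 ± 287.3 with FGF2, a log2 ratio of −0.19 ± 0.06. Tubb4b gave 2720 and 2245 (−0.09 ± 0.08). Tubb2b, a beta-tubulin of the developing nervous system, gave 340.4 ± 16.1 and 240.4 ± 11.5 (−0.32 ± 0.10).

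Tubb3, a beta-tubulin used as a marker of neurons, was detected in control only, at 198.7 against 184.2, and gives no measurable difference. The list of neural markers it belongs to has 5 genes with a named probe. Their summed signal was 1261 in control and 2088 with FGF2. Gap43, a growth cone protein gene, gave 617.8 and 1329 (1.35 ± 0.07), Nes was at least 1.74-fold higher, and Map2 and Nefl were not detected. The part of other cell types in the tubulin values was not tested.

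In the authors' value table Tubb5 (0.02) and Tubb4b (0.06) were above 0 before centring and below 0 after it (−0.09 and −0.05), so their direction depends on scaling. Tuba1a, Tuba3a, Tuba3b and Tubb2b were below 0 under all 11 settings, counting those that cannot alter their ratios. After centring of the authors' table, Tuba3a (−0.60) and Tubb2b (−0.68) also passed 1.5-fold. Over the 8 detected tubulins the median was −0.20.

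Most detected kinesins lay within 1.5-fold. Of 18 kinesin genes 7 were detected, 1 of them higher by 1.5-fold and none lower. Their median of 0.07 counts 2 genes with only a bound (Kif1a and Kif4) and is itself the bound of Kif1a. Over the 5 measured on both arrays the median was 0.25, against 0.04 over all genes so measured. The median of the 7 was 0.20 after centring in the authors' value table. Kif3c, which encodes a motor subunit of heterotrimeric kinesin, gave 331.4 ± 10.1 in control and 441.9 ± 13.7 with FGF2. It was 1.55-fold higher (0.63 ± 0.06), and 0.90 after centring in the authors' value table. Its dimmer probe pointed the same way, at 180.4 and 241.2, and was detected with FGF2 only, at least 1.36-fold higher. Unscaled signals left Kif3c at 0.42, under 1.5-fold.

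Other subunit genes of heterotrimeric kinesin-2 had lower ratios. Kif3a, the subunit that pairs with KIF3B or KIF3C, gave 418.9 and 452.0 (0.34 ± 0.07). It was above 0 under all settings, counting those that cannot alter its ratio. Kif3b, the gene of the subunit that takes the place of KIF3C, gave 249.7 and 215.4 (−0.05 ± 0.07). Kifap3, the gene of the adaptor that joins the motor to its cargo, gave 364.9 and 291.1 (−0.12 ± 0.07). The 4 genes thus covered a range from −0.12 to 0.63. Their bead errors leave out variation between cultures, so how much of that range would recur is unknown.

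The other detected kinesins stayed within 1.5-fold. Kif1b, a carrier of mitochondria and vesicles, gave 397.3 and 400.6 (0.25 ± 0.08). Kif18b, a kinesin of the mitotic spindle, gave 238.6 and 223.2 (0.06 ± 0.09). Kif4, a chromosome-associated mitotic kinesin, was detected in control only (204.4 against 172.2), at a bound of 0.04 in size toward lower. Kif1a, known from axonal transport, was detected with FGF2 only, with signals of 193.4 and 190.0 that straddle the detection threshold.

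Dynein genes lay close together. Of 6 genes 4 were detected. The 3 measured on both arrays ran from 0.08 to 0.19, and Dync1li1 has only a bound. The heavy chain gene Dync1h1, which encodes the motor subunit of cytoplasmic dynein, gave 533.4 and 480.7 (0.09 ± 0.07). The light chain genes Dynll1 and Dynll2 were at 0.08 ± 0.11 (620.6 and 551.2) and 0.19 ± 0.07 (211.1 and 217.4). The light intermediate chain gene Dync1li1 was detected with FGF2 only (175.8 against 196.4), at least 1.09-fold higher, with a ratio of 0.26 when no floor is set. Dync1h1 and Dynll1 were below 0 in unscaled signals (−0.15 and −0.17), so their direction is not settled.

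**Figure D2:**
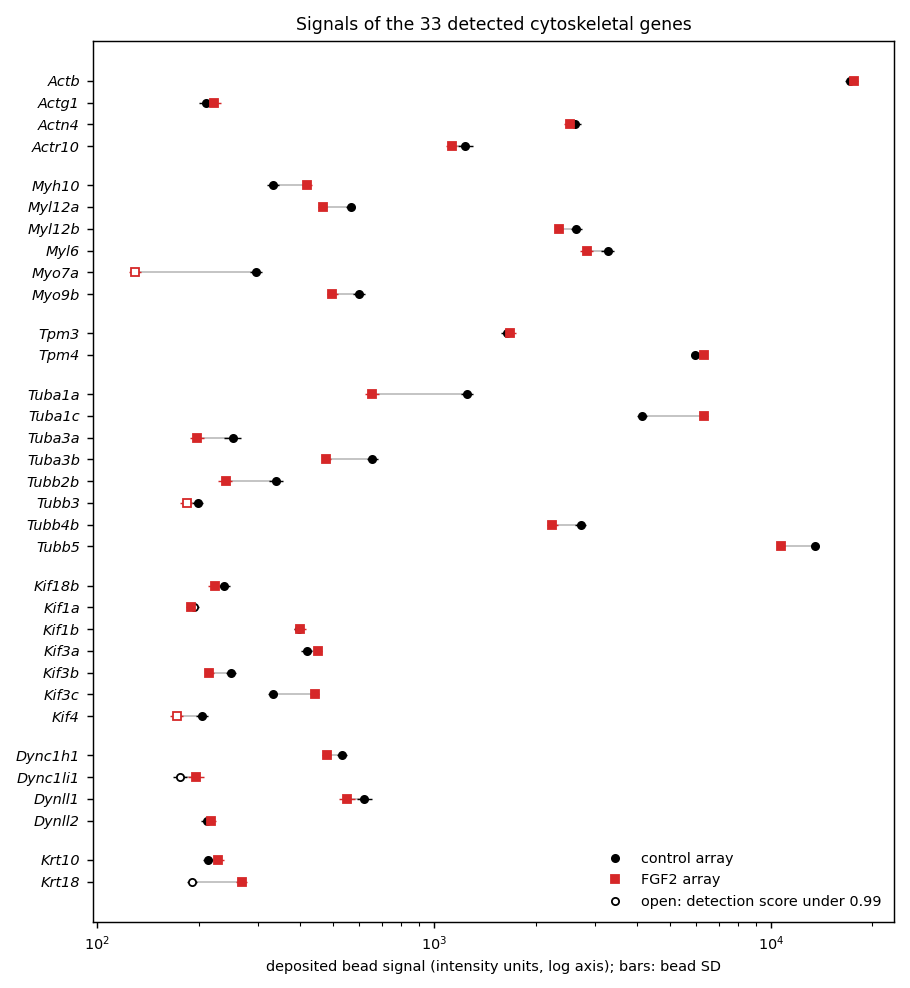
Deposited bead signals of the 33 detected genes on a log axis, with black circles for the control array, red squares for the FGF2 array, bars for the bead standard deviation and open symbols where the detection score was under 0.99. The widest gaps are those of Myo7a, Tuba1a and Tuba1c, while Actb (17121 and 17598) and Tpm3 (1649 and 1680) have nearly overlapping symbols.

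Actin genes were slightly above 0 after normalization. Of 6 genes for actins, alpha-actinins and actin-related proteins 4 were detected, none past 1.5-fold, with a median of 0.15. Actb, which encodes the cytoplasmic beta-actin often used as a reference, gave 17121 ± 573.5 in control and 17598 ± 519 with FGF2. Its log2 ratio was 0.16 ± 0.06, with 0.04 in unscaled signals and, in the authors' value table, 0.39 before centring and 0.28 after it. Actg1, the cytoplasmic gamma-actin gene, gave 210.1 ± 9.2 and 222.1 ± 10.5 (0.22 ± 0.09) on a probe close to the lowest detected signals. A change of Actg1 would be understated at that level, and it stood at 0.51 after centring in the authors' value table.

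Actn4, a non-muscle alpha-actinin gene, gave 2612 and 2540 (0.15 ± 0.09). Actr10, whose product Arp11 belongs to the dynactin complex, gave 1238 and 1127 (0.13 ± 0.09). Both were below 0 in unscaled signals, at −0.04 and −0.14. By comparison Acta2, which was left out of the members and encodes smooth muscle actin, gave 1365 and 358.4, a log2 ratio of −1.68 ± 0.07.

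Both tropomyosin genes had ratios above 0 that were under 1.5-fold on their brightest probes and differed among probes. Tpm4 gave 5958 ± 186 and 6309 ± 161 on its brightest probe (0.23 ± 0.06). On its other 2 probes it gave 954.5 and 1300 (0.70 ± 0.08) and 352.9 and 471.0 (0.64 ± 0.08). The brightest probe is thus 0.47 below the highest, and by the dimmer probes Tpm4 passed 1.5-fold, though not in unscaled signals (0.45 and 0.42). Tpm3 gave 1649 and 1680 on its brightest probe (0.29 ± 0.09) and 740.5 and 866.6 on another (0.50 ± 0.09), while its remaining probe was not well above background. Both genes are known to make many isoforms by alternative splicing, and which isoforms a probe reads was not tested. All 5 detected tropomyosin probes were above 0 in every scaling of the signals, and in unscaled signals the brightest probes were at 0.03 for Tpm3 and 0.08 for Tpm4, beside bead errors of 0.09 and 0.06.

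Among the myosins measured on both arrays, the heavy chain gene Myh10 had the highest ratio and the light chain genes lay near 0. Of 16 myosin genes 6 were detected, with a median of −0.01. The 5 measured on both arrays were within 1.5-fold, and Myo7a has only a bound. Myh10, the heavy chain gene of non-muscle myosin IIB, gave 332.1 ± 13.6 in control and 419.2 ± 14.2 with FGF2. It was 1.47-fold higher (0.55 ± 0.08), just inside 1.5-fold, and reached 0.64 with a normexp background correction and 0.79 after centring in the authors' value table. It was above 0 under all 11 settings, counting those that cannot alter its ratio.

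The light chain genes of that motor had lower ratios than Myh10. Myl6, the essential light chain gene of non-muscle myosin, gave 3271 and 2841 (0.00 ± 0.09). The regulatory light chain genes Myl12a and Myl12b were at −0.03 ± 0.06 (566.0 and 467.2) and 0.02 ± 0.07 (2645 and 2351). Mylk, the gene of the kinase that phosphorylates the regulatory light chain, is no member but gave 904.7 and 175.9, at least 4.34-fold lower.

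Among unconventional myosins, Myo7a, known from the sensory cells of the ear and retina, gave 296.3 ± 11.5 in control and was not well above background with FGF2, at 129.7 ± 5.4. It was at least 1.45-fold lower against the detection floor. The floor of 191.7 on the FGF2 array sets that bound, and the ratio without a floor was −1.09. The authors' value table gives a bound of at least 2.41-fold lower before centring. Myo9b, an unconventional myosin, gave 599.4 and 499.0 (−0.02 ± 0.08). The skeletal muscle markers moved beside these genes by 1 gene only. Of 2 with a named probe Chrna1 was detected, with FGF2 only (148.5 and 1120), the other (Actn3) was not, and the list's summed signal was 298.9 in control and 1259 with FGF2. Its part in the myosin values was not tested.

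Keratins were almost all under detection, and 2 of 20 were detected. Krt18, a keratin of simple epithelia, gave 191.1 ± 7.0 in control, just under the detection threshold, and 268.5 ± 10.5 with FGF2. It was at least 1.52-fold higher, and the bound in the authors' value table, where the background is removed, was 2.94-fold before centring and 2.72-fold after it. Krt8, which encodes the usual filament partner of KRT18, was not detected by either of its probes, with 137.4 and 133.5 on the brighter one. Of 4 epithelial markers with a named probe 2 were detected, Krt18 and Cldn4, while Krt8 and Krt19 were not. Cldn4 gave 202.4 in control and 187.0 with FGF2 (−0.01 ± 0.08), and Krt19 gave 112.0 and 102.0. The summed signal of the 4 was 642.9 in control and 691.0 with FGF2. That sum holds Krt18 itself, and each of the other markers had less deposited signal with FGF2. The part of other cell types in the Krt18 value was not tested. Krt10, a keratin of the upper epidermis, gave 213.4 and 228.0 (0.24 ± 0.08), near the lowest detected signals.

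**Figure D3:**
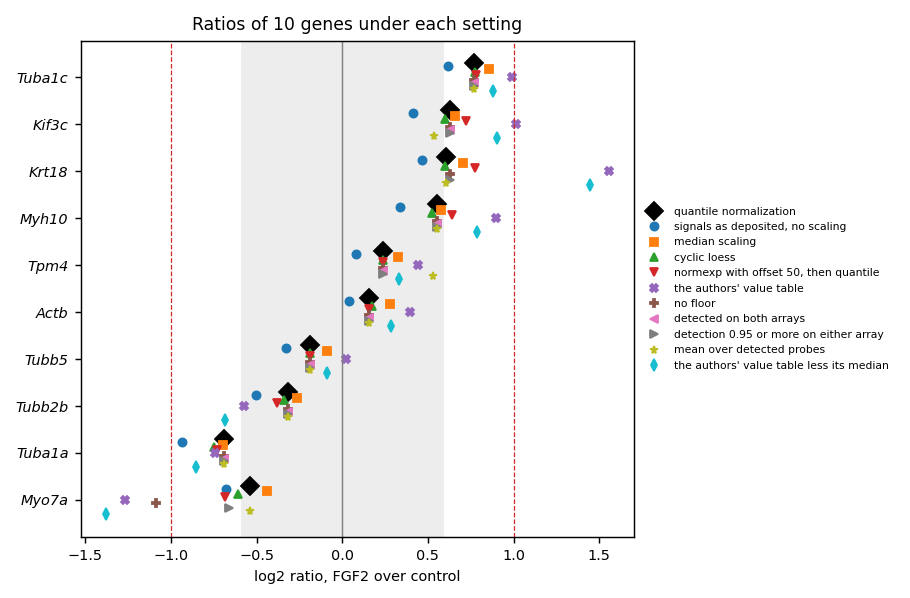
Log2 ratios of 10 members, picked after their values were seen, under quantile normalization (black diamonds) and 10 alternatives, with the grey band at 1.5-fold and red dashed lines at 2-fold. Tuba1c and Tuba1a stay outside the band under every setting. Kif3c, Krt18, Myh10, Myo7a and Tubb2b cross its edge, and Tubb5 crosses 0 in the authors' value table.

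Kif3c and Krt18, the other members past 1.5-fold, have windows before their starts with none of the 5 motifs, shown here for comparison with those of the alpha-tubulins. Kif3c lies at chr12:3364882-3365131 and Krt18 at chr15:102027966-102028215, both on the plus strand of GRCm38.p6, in lower case because no motif was matched.
Kif3c: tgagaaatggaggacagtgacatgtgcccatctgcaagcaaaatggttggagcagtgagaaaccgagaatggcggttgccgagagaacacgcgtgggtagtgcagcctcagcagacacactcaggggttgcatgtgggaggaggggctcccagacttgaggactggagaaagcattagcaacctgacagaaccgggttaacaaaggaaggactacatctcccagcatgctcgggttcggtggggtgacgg
Krt18: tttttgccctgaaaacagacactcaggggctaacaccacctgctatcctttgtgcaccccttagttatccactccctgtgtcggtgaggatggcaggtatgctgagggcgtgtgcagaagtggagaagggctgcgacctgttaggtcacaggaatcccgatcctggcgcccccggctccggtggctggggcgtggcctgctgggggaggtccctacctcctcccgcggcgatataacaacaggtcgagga

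Windows were listed for 30 of the 33 detected genes, 35 windows in all, and Actb, Dynll2 and Tubb2b have no entry. The GC box occurred in 65.7% of the members' windows, against 32.7% of all windows. Their median GC content was 59.6%, against 52.4% over all windows, and the part of base composition in the share of GC boxes was not tested. CCAAT was in 51.4% of members' windows, in those of Tubb5, Tubb4b, Tuba1a and Tuba1c among others. The CArG box was found in 2 windows, those of Actg1 and Myl6, or 5.71% against 1.47% of all windows. TATAAA was in 1 window (Krt10), or 2.86% against 12.4%, and the cell cycle homology region in 5, or 14.3% against 16.0%. The members' windows are those of detected genes, while the set of all windows also holds genes not detected or not named here. The part of that difference in these shares was not tested. These matches are a description and no evidence of binding.

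The remaining 47 members were not well above background on either array. They comprise 2 genes of the actin group (Actn3 and Actr3), 10 myosins, 4 tubulins (Tuba4a, Tuba8 and the ring complex genes Tubgcp4 and Tubgcp5), 11 kinesins, 2 dyneins (Dync2h1 and Dynlt1b) and 18 keratins. Myosin signals among them lay between 107.9 and 169.7, with the striated muscle genes Myh1, Myh6, Myh7 and Myl7 included. Keratin signals lay between 102.0 and 186.0, and kinesin signals between 117.0 and 188.5, with the mitotic kinesin gene Kif15 and the conventional kinesin genes Kif5a and Kif5b included. Closest to the threshold from below was Kif21a, with a detection score of 0.987 on the FGF2 array, and closest from above were Kif1a and Tubb3 at 0.994. Signals near background do not show that a transcript is absent, since Actr3 and Kif5b are known as widely expressed genes.

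**Figure D4:**
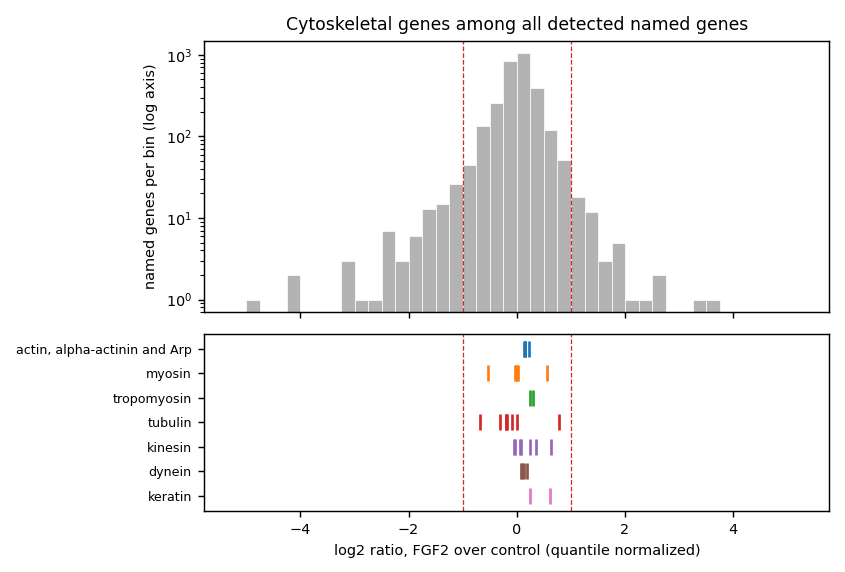
Upper panel: number of detected named genes (log axis) per bin of log2 ratio, FGF2 over control, for 3005 genes. Lower panel: a tick for each of the 33 cytoskeletal genes by family, with red dashed lines at 2-fold. As plotted, with 6 of the members at a bound against the detection floor, the ticks lie between −0.69 and 0.77, while the full set runs out to more than 4-fold on both sides.

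Genes that work on actin filaments ran from −1.84 to 0.98 in quantile-normalized signals. Their range is not compared with that of the filament genes, which are fewer and leave out Acta2 (−1.68). Of 33 regulators of actin filaments with a named probe 29 were detected. Of these, 5 had at least 1.5-fold more signal with FGF2 and 2 at least 1.5-fold less, against 5.29% and 6.79% of all detected genes, with a median of 0.11 against 0.03. The 1 regulator past 2-fold was Marcks, which encodes a membrane-bound actin crosslinker and was lower at 4040 and 968.9 (−1.84 ± 0.07). The highest was Msn, the gene of moesin, a linker of actin to the membrane, with 775.7 and 1288 (0.98 ± 0.07). By the authors' values before centring, 3 of 29 regulators were at least 2-fold higher (Msn at 1.20, Ezr at 1.33 and Pdlim7 at 1.01 on the log2 scale), against 4.59% of all genes, and Marcks was again the 1 lower. After centring 2 were left (Msn and Ezr), with Pdlim7 at 0.90, against 3.49% of all genes. In unscaled signals the balance turned, with 1 regulator at least 1.5-fold higher (Msn) and 4 lower, against 2.7% and 11.6% of all genes. Ezr, which encodes the related linker ezrin, gave 234.2 and 327.4 (0.66 ± 0.07), while Rdx, the gene of the linker radixin, gave 368.9 and 313.7 (−0.02 ± 0.08).

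Subunits of the Arp2/3 complex, which nucleates branched actin, were singled out after their values were seen. Arpc1b gave 2057 and 2881 (0.72 ± 0.09) and Arpc5 gave 414.0 and 540.2 (0.62 ± 0.06). Arpc4 (984.3 and 1109) was at 0.43 ± 0.07 and Arpc3 (1685 and 1632) at 0.22 ± 0.08. All 4 were above 0 after normalization, and Arpc3 was at −0.05 in unscaled signals. Actr3, the member that belongs to this complex, was not detected.

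Of 13 genes in the list of small GTPases, myosin regulators and serum response factor targets 6 were detected. Beside Mylk, Rnd3, the gene of an atypical small GTPase that relaxes actin bundles, was past 2-fold at 602.1 and 238.1 (−1.13 ± 0.11). Ccn1, a target of serum response factor and YAP, was the highest at 293.5 and 497.2 (0.98 ± 0.08), and Rhob, a small GTPase gene, gave 1194 and 1731 (0.79 ± 0.07). Rhoa and Cdc42 were at 0.30 and 0.31. The median of the list was 0.31, against 0.03 over all genes. Of the 6 genes 2 were at least 1.5-fold higher and 2 lower, against 5.29% and 6.79% of all genes.

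Microtubule partners showed no difference of 1.5-fold in quantile-normalized signals, and some did under other scalings. Of 12 detected genes for microtubule-associated proteins and tubulin folding, Mapre2 (end-binding protein EB2) was the lowest at −0.49 ± 0.07 (838.9 and 504.0) and Map1b the highest at 0.53 ± 0.09 (215.9 and 278.4), with a median of −0.03. Of 7 detected dynactin genes and motor partners, Dctn4 was the lowest at −0.40 ± 0.07 (1025 and 650.2) and the kinesin light chain gene Klc1 the highest at 0.51 ± 0.07 (314.4 and 383.9), with a median of −0.01. Of these 19 genes 0 passed 1.5-fold, against 12.1% of all genes. By the authors' values before centring, 3 were at least 1.5-fold higher, against 13.8% of all genes: Map1b at 1.21, past 2-fold, Klc1 at 0.84 and Nde1, a dynein regulator gene, at 0.72. After centring these 3 stayed past 1.5-fold, and 2 genes (Mapre2 and Stmn1) were lower by that size, against 10.3% and 13.5%. In unscaled signals Mapre2 (−0.74) and Dctn4 (−0.66) passed 1.5-fold lower, against 11.6% of all genes.

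Other intermediate filament and linker genes included 5 detected of 14. Plec, which encodes the linker plectin, gave 5656 and 8670 (0.78 ± 0.08), and Lmna, the gene of the nuclear lamins A and C, gave 1977 and 2127 (0.33 ± 0.07). Nes, an intermediate filament gene of progenitor cells, was the highest (162.5 and 303.9, at least 1.74-fold higher), and Jup, the gene of the junction protein plakoglobin, was the lowest (−0.11 ± 0.08). The list's median was 0.33, against 0.03 over all genes. Of the 5 genes 2 (Plec and Nes) were at least 1.5-fold higher and none lower, against 5.29% and 6.79% of all genes.

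**Figure D5:**
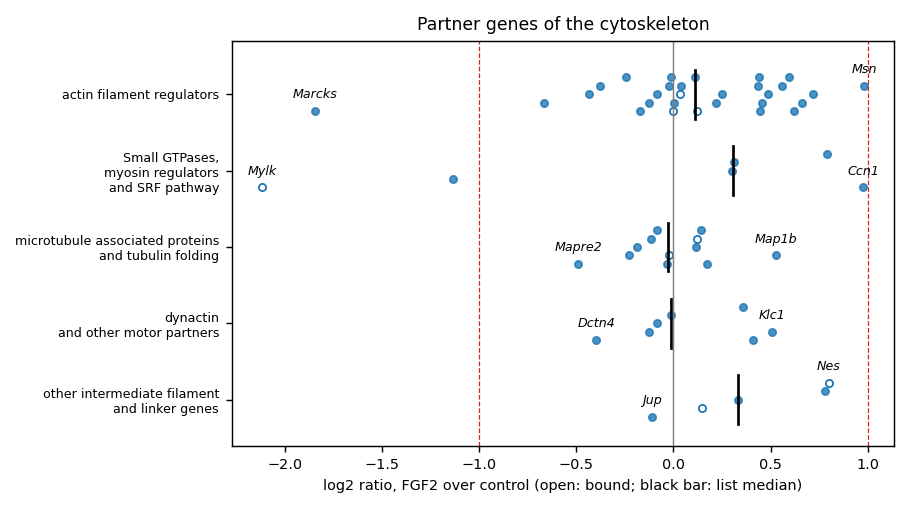
Log2 ratio of FGF2 over control for every detected gene of the 5 partner lists, with open circles for genes detected on 1 array, black bars for list medians and red dashed lines at 2-fold. Marcks, Mylk and an unlabelled point for Rnd3 lie left of 2-fold lower, no gene lies right of 2-fold higher, and the microtubule lists stay within 1.5-fold in these quantile-normalized values.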

How the data were processed

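The deposited per-sample tables give, per the file headers, a mean intensity over beads, its bead standard deviation (also an intensity) and a detection score (a fraction between 0 and 1) for each probe. Per the submitters' processing notes the arrays were read with BeadStudio 1.0, and the sources used here do not say whether it normalized them. Per the labels' protocols, 300 ng of RNA was amplified with 6 h of transcription. The authors' value table holds intensities too. Its control column equals the deposited signal less 135.4, its FGF2 column follows a line with slope 1.28 and intercept −169.4, both are empty under a detection score of 0.99, and their medians are 262.1 and 276.8. What sets that slope is unknown.

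Groups came from the titles and descriptions. Identifiers with 1 or 2 leading zeros were read as NCBI gene numbers and named from RefSeq (GRCm38.p6), which gave 8884 named probes. The names rest on this reading, and other probes are unnamed here. Signals were quantile normalized with limma 3.58.1 in R 4.3.3. The floor was the lowest normalized signal of a detected probe, 188.4 in control and 191.7 with FGF2. A gene detected on 1 array gives a bound against the higher of that floor and its own signal. The scaling and ratio code was checked on simulated data, with 2-fold changes made in bright probes only. That check did not cover changes in dim probes or bounds for genes detected on 1 array.

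Members, lists and thresholds were chosen with earlier results of these data known. Named were members past 1.5-fold, each family's brightest, highest and lowest members, and list genes past 2-fold or at a list's ends. The other detected members are given beyond that rule, as are some list genes (Ezr, Rdx, Arpc genes, Pdlim7, Rhob, Rhoa, Cdc42, Kifap3, Nde1, Stmn1, Plec, Lmna, Gap43) chosen after their values were seen. GGGCGG and CCAAT were added to the motifs after the values were seen.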

Additional observations from a re-analysis of the deposited data

How the results depend on the processing

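No paired analysis was possible because each group has 1 array, and for the same reason no replicate could be left out. In unscaled signals 1 member was at least 1.5-fold higher and 2 were lower, with a median of −0.10. With cyclic loess, normexp, no floor or a detection score of 0.95 or more, 2 members were at least 1.5-fold lower (Tuba1a and Myo7a), and without a floor 1 was at least 2-fold lower. The authors' value table gave 2 members at least 2-fold higher and 1 lower, 6 at least 1.5-fold higher and 2 lower, and a median of 0.18. Centred on all genes, an alternative chosen after seeing the data, it gave 1 and 1 at 2-fold and 4 lower at 1.5-fold. The alternatives not named here, and the other values under those named, left the counts within 1.5 times and the median within the median bead error of 0.08. The 4 members past 1.5-fold kept their sign under all alternatives that measured them, and unscaled signals left 2 of them (Tuba1a and Tuba1c) past it. Those signs were partly fixed in advance. Krt18, as a bound, could not turn negative while a floor was set, and some alternatives could not alter Tuba1a and Tuba1c. Kif3c was under 1.5-fold in the mean over its probes. The cause of these shifts was not tested, except that a floor sets the bound of Myo7a. Signals close to 190 intensity units limit the dim members.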
